A study of Mus musculus with 28 samples.

Results

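The genes described here are 5 subunits of the SMRT/NCOR corepressor complex, chosen by their symbols among the 23382 gene symbols listed in every library: Tbl1xr1, Tbl1x, Ncor1, Hdac3 and Gps2. All 5 were listed, and all 5 passed the filter on low values in every comparison. Their transcripts were measured by RNA-seq in 28 libraries of mouse germinal center B cells, in 6 groups, to ask whether alleles of Tbl1xr1 go with altered levels of the gene itself and of its partner subunits.

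Every group carried the Cg1Cre allele on 1 chromosome, which drives Cre recombinase from the immunoglobulin Cγ1 locus in B cells responding to antigen. Without a further allele, 5 libraries were Tbl1xr1(D370Y/WT), a heterozygous change of residue 370, and 3 were Tbl1xr1(WT/WT), called WT. With the ImuBCL6 allele, in which an immunoglobulin heavy-chain promoter drives Bcl6, 5 libraries were Tbl1xr1(D370Y/WT) and 5 were Tbl1xr1(WT/WT), called ImuBcl6 D370Y and ImuBcl6. The last 5 were labelled Tbl1xr1(KO/KO) and had 5 Cre controls, which carry the same genotype label as WT but come from a separate set of libraries. The labels give no ages, no animal for any library and no share of cells that had recombined, so all p-values measure the spread between libraries, which may be technical in part.

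The complex represses transcription by removing acetyl groups from histones. NCOR1 is a large scaffold that binds DNA-bound repressors and nuclear receptors, HDAC3 is the deacetylase it activates, GPS2 is a small subunit that binds the scaffold, and TBL1X and TBL1XR1 are paralogous WD40-repeat proteins that tether the complex to chromatin and take part in corepressor exchange. In germinal center B cells BCL6, the main transcriptional repressor of that state, recruits the complex to its targets.

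Codon 370 of Tbl1xr1 is shown with its counterpart in Tbl1x because the D370Y allele changes this residue and because reads from such similar coding sequences could in principle be shared. Both are spliced reference coding sequence of GENCODE M21 (GRCm38, which mm10 names), plus strand, 63 bases, and both run across the junction of exons 12 and 13. In the sequence of Tbl1xr1 (chr3:22200620-22203114) capitals mark codon 370, GAC for aspartate. In that of Tbl1x (chrX:77652794-77653231) capitals mark the bases that differ from Tbl1xr1.
Tbl1xr1: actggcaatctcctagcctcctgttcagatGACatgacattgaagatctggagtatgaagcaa
Tbl1x: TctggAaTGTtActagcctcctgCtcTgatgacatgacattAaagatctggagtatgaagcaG
The window held 10 differing bases, and the aligned codon of Tbl1x, number 383, is also GAC. Over the whole coding sequences 1195 of 1542 aligned bases (77.5%) and 462 of 508 aligned residues (90.9%) were identical. The longest run of bases shared by any of their annotated transcripts was 20, so an uninterrupted match between the paralogs is short.

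The 28 libraries held 19.0 to 37.7 M reads on listed genes, with the D370Y and WT libraries the shallowest at 19.0 to 22.2 M. Each value of a member rested on at least 1350 reads. B cell markers (Ms4a1, Cd79a, Cd79b, Pax5 and Ptprc) summed to 3650 CPM or more in every library, and germinal center markers such as S1pr2 to 1575.5 CPM or more. KO replicate 3 stood apart: reads on listed genes made up 64.4% of its denominator, against up to 84.6% elsewhere. Its B cell markers summed to 3650 CPM against 4951 to 5471 in the other KO libraries. Its T cell markers were also the lowest of that group (125.3 against 203.5 to 287.9 CPM). Its germinal center markers were the highest (2083 against 1575.5 to 1882 CPM). These sums were not rescaled to listed genes. The difference of each member in the KO comparison is therefore also given without KO replicate 3. Xist exceeded the Y-linked transcripts in all 5 D370Y and all 5 ImuBcl6 libraries, while the Y-linked transcripts were the higher in all 3 WT and all 5 ImuBcl6 D370Y libraries, so in each D370Y comparison taken alone sex and genotype cannot be told apart. The arrangement is opposite in the 2 backgrounds, and their averaged D370Y effect sets both patterns on both sides.

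Tbl1xr1 (chromosome 3, 22076652 to 22216594, plus strand) had a lower mean with D370Y in both backgrounds, past the test with ImuBcl6 alone, and no lower mean in the libraries labelled KO. In D370Y cells its libraries 1 to 5 held 165.0, 140.2, 141.5, 135.0 and 146.5 CPM, and the WT libraries held 156.4, 171.4 and 176.0 CPM. D370Y replicate 1 lay within the WT range and the other 4 lay below it, so the groups overlapped. The difference was -0.21 ± 0.08 (SE, 5 against 3 libraries) on the log2(CPM + 1) scale, with a 95% interval of -0.37 to -0.04, and did not pass the test over all genes (limma adjusted p = 0.166, unadjusted p = 0.018).

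With ImuBcl6 the D370Y libraries 1 to 5 held 97.9, 101.4, 94.7, 98.6 and 98.9 CPM of Tbl1xr1, and their ImuBcl6 controls held 159.0, 129.0, 133.6, 112.5 and 106.4 CPM. Every D370Y library lay below every control, and the controls were the more scattered group (SD 20.6 against 2.43 CPM). Tbl1xr1 fell by 0.37 ± 0.09 on the log2(CPM + 1) scale (SE, n = 5 per group, limma adjusted p = 0.0261), a change of -22.4%. With the gene length index described further on as a covariate it was -0.20 ± 0.05 and still passed (limma adjusted p = 0.0203). The call was lost, at nearly the first size, without the low-value filter (adjusted p = 0.0544) and without D370Y replicate 2, 3 or 5 or control replicate 2 or 3 of these groups (differences of -0.38 to -0.35, adjusted p = 0.0502 to 0.0785). Averaged over both backgrounds, the D370Y effect on Tbl1xr1 was -0.29 ± 0.06 (95% interval -0.42 to -0.15, limma adjusted p = 0.00541), or -17.9%. The effect with ImuBcl6 minus that without was -0.16 ± 0.13 (limma adjusted p = 0.642), where 0.663% of genes were called, so no difference between the backgrounds was detected.

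Of the 5 subunits, 0 passed the test between D370Y and WT, where limma called 3.55% of all genes tested, and 1 (Tbl1xr1) had an unadjusted p below 0.05. edgeR's quasi-likelihood test and DESeq2 on recovered reads also called 0 members there. In ImuBcl6 cells 1 of 5 passed, beside 8.18% of all genes. The same gene alone passed for the averaged effect, beside 12.5% of all genes. The ranges of the libraries were apart for 0 of 5 members between D370Y and WT (14.8% of genes) and for 1 of 5, again Tbl1xr1, with ImuBcl6 (8.96% of genes). The median log2 difference of the 5 members was -0.08 and -0.06 in the 2 comparisons, against -0.02 and -0.01 over all genes tested.

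**Figure D1:**
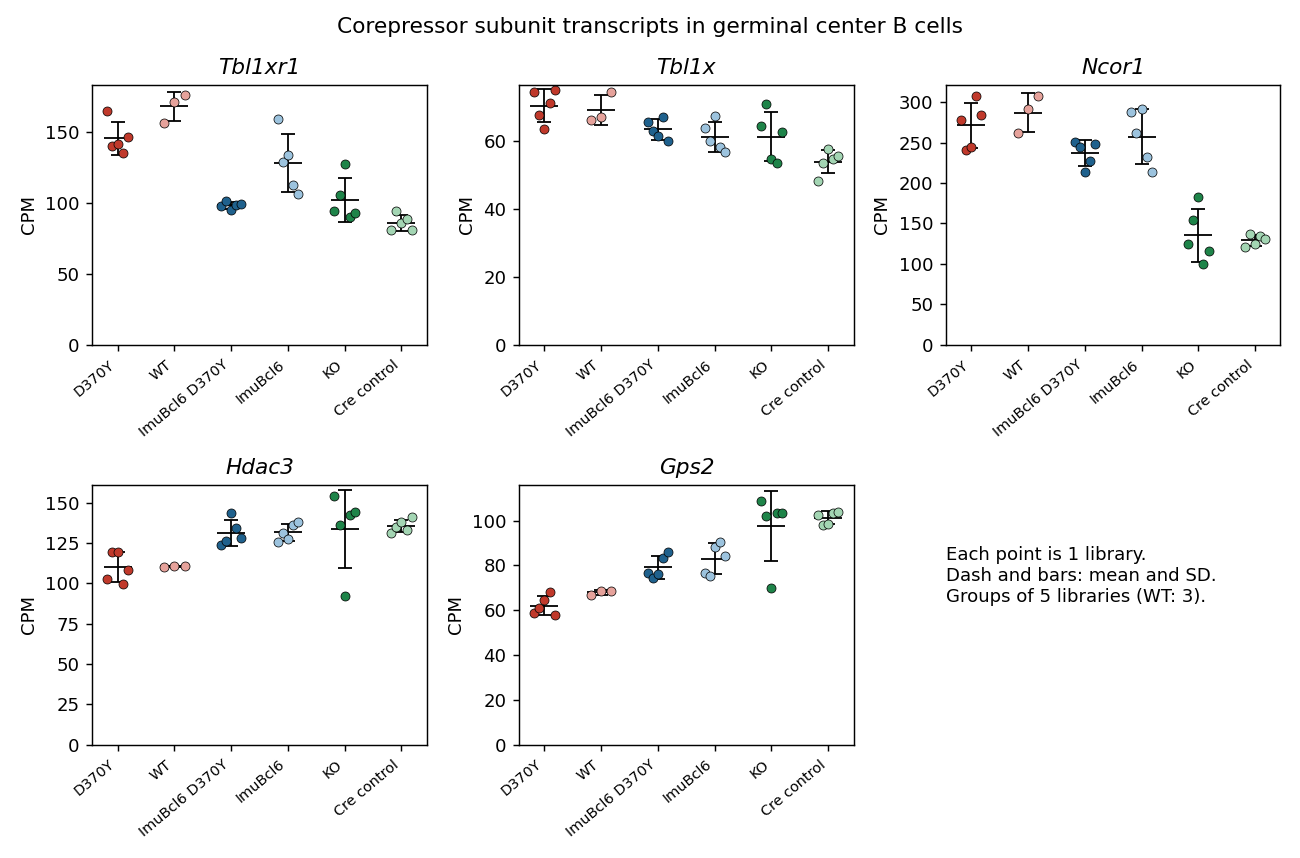
CPM of each subunit (y axis, from 0) in the 6 groups (x axis), with 1 point per library and the mean and SD as a dash and bars. Tbl1xr1 was lower in all 5 ImuBcl6 D370Y libraries than in all 5 ImuBcl6 libraries, and in Hdac3 and Gps2 a single KO library, replicate 3, lay far below the rest of its group.

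In the libraries labelled KO, Tbl1xr1 was at 94.4, 105.3, 127.5, 89.7 and 93.0 CPM, and in the Cre controls at 80.6, 94.5, 85.7, 88.4 and 80.8 CPM. KO replicates 2 and 3 lay above every control, and the other 3 lay within the control range. The difference was 0.23 ± 0.11 (95% interval 0.0046 to 0.46, limma adjusted p = 0.527) and 0.15 ± 0.06 without KO replicate 3 (adjusted p = 0.225). The Y-linked pattern was present in 3 of 5 KO and 1 of 5 Cre control libraries, and with the Y-linked level as a covariate the difference was 0.30 ± 0.11 (limma adjusted p = 0.206). CPM summed over a whole gene does not show the loss of single exons, and the sources used here do not give the part of Tbl1xr1 that the KO allele lacks, so these values check nothing about the deletion. Between KO and Cre control 0 of 5 members passed (1.39% of all genes did) and 0 of 5 had ranges that were apart (4.23% of all genes). At an unadjusted p below 0.05 there was 1 member, Tbl1xr1, and edgeR's quasi-likelihood test and DESeq2 called 0.

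The differences of Tbl1xr1 from control had opposite signs for D370Y and KO, but neither the KO difference nor that of D370Y without ImuBcl6 passed, and no test of the difference between the effects passed over all genes. The KO effect minus the D370Y effect was 0.44 ± 0.14 (limma adjusted p = 0.328, unadjusted p = 0.00462), in a contrast that called 0.145% of genes. Against the ImuBcl6 D370Y effect it was 0.60 ± 0.14 (limma adjusted p = 0.103), in a contrast added after the values were seen that called 0.118% of genes.

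Tbl1x (chromosome X, 77511013 to 77662983, plus strand), the paralog of Tbl1xr1, passed no test in any allele comparison. Its D370Y libraries held 74.5, 67.6, 63.5, 71.1 and 74.9 CPM and its WT libraries 66.2, 67.2 and 74.3 CPM. With ImuBcl6 the D370Y libraries held 65.6, 62.8, 61.5, 67.2 and 59.8 CPM and the controls 63.9, 59.9, 67.4, 58.2 and 56.6 CPM. The groups overlapped in both cases, with log2 differences of 0.02 ± 0.07 (limma adjusted p = 0.910) and 0.05 ± 0.06 (limma adjusted p = 0.671). Averaged over both backgrounds the interval ran from -0.06 to 0.14. The gene lies on the X chromosome, and the D370Y effect with ImuBcl6 minus that without, in which the Xist and Y-linked patterns are exchanged, was 0.03 ± 0.09 (limma adjusted p = 0.929). In the libraries labelled KO Tbl1x was at 64.4, 70.7, 54.6, 53.4 and 62.7 CPM, against 48.3, 53.4, 57.5, 54.7 and 55.6 CPM in the Cre controls. KO replicates 1, 2 and 5 lay above every control and the other 2 among them. The difference was 0.17 ± 0.10 (limma adjusted p = 0.707), or 0.21 ± 0.08 without KO replicate 3 (limma adjusted p = 0.159).

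The ratio of Tbl1xr1 to Tbl1x CPM within a library does not depend on how libraries are scaled. It was 2.22, 2.07, 2.23, 1.90 and 1.96 in D370Y and 2.36, 2.55 and 2.37 in WT libraries. No D370Y library reached the lowest WT library. The mean log2 ratio differed by -0.23 ± 0.06 (SE), with an exact two-sided permutation p = 0.0357, the smallest that 5 against 3 libraries allow, and 0.0536 adjusted over the 3 allele comparisons. With ImuBcl6 the ratio was 1.49, 1.61, 1.54, 1.47 and 1.65 with D370Y and 2.49, 2.15, 1.98, 1.93 and 1.88 without. Here too the groups did not overlap. The log2 ratio differed by -0.42 ± 0.08 (exact permutation p = 0.00794, the smallest that 5 against 5 allow, adjusted p = 0.0238). The ratio was not adjusted for the gene length index described further on. With that index as a covariate the ImuBcl6 differences were -0.20 for Tbl1xr1 and 0.12 for Tbl1x.

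In the libraries labelled KO the ratio was 1.47, 1.49, 2.34, 1.68 and 1.48, and in the Cre controls 1.67, 1.77, 1.49, 1.62 and 1.45. The value of KO replicate 3 stood above every library of both groups and the other 9 overlapped. The log2 difference was 0.06 ± 0.14 (exact permutation p = 0.762, adjusted p = 0.762) and turned to -0.06 without KO replicate 3 (exact permutation p = 0.492 after adjustment).

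**Figure D2:**
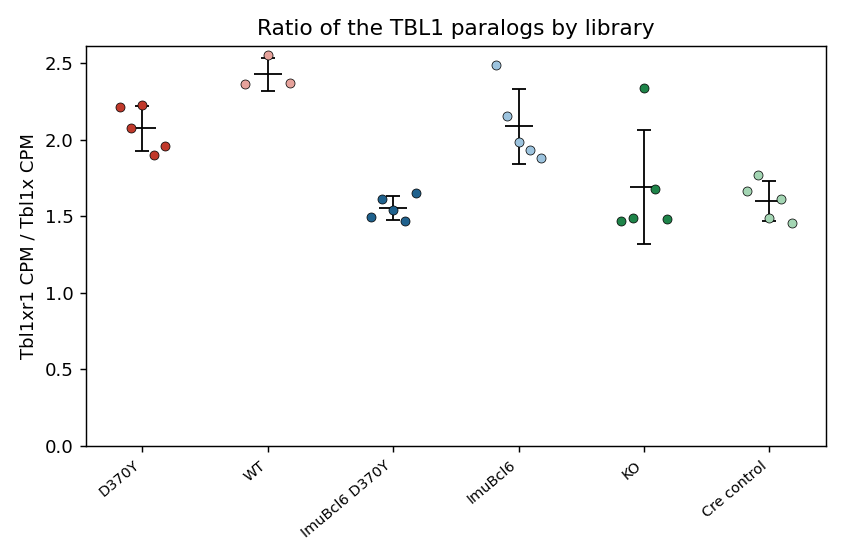
Ratio of Tbl1xr1 to Tbl1x CPM (y axis, from 0) in each library of the 6 groups (x axis), with group means and SD as dashes and bars. The ratio was lower in both D370Y groups (1.90 to 2.23 and 1.47 to 1.65) than in their controls (2.36 to 2.55 and 1.88 to 2.49), and the KO group held 4 libraries between 1.47 and 1.68 and 1 at 2.34.

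Ncor1 (chromosome 11, 62316426 to 62458541, minus strand), the scaffold, was the subunit with the widest range over the groups and passed no test in the allele comparisons. It stood at 278.3, 241.4, 244.2, 307.9 and 283.9 CPM in D370Y and at 261.2, 291.9 and 307.8 CPM in WT libraries. It was at 250.4, 244.7, 213.5, 227.3 and 248.0 CPM in ImuBcl6 D370Y and at 287.5, 261.6, 291.7, 232.0 and 213.2 CPM in ImuBcl6 libraries. The groups overlapped in both, and the differences were -0.08 ± 0.09 (limma adjusted p = 0.652) and -0.11 ± 0.09 (limma adjusted p = 0.483). The libraries labelled KO ran from 100.5 to 182.4 CPM, with replicate 3 the highest, and held the whole Cre control range of 120.4 to 136.8 CPM. Their difference was 0.04 ± 0.14 and turned to -0.07 ± 0.10 without KO replicate 3 (limma adjusted p = 0.953 and 0.749).

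Hdac3 (chromosome 18, 37935844 to 37955016, minus strand), the deacetylase, was the subunit closest to its controls in both D370Y comparisons. Its D370Y libraries held 102.6, 119.2, 119.6, 99.4 and 108.3 CPM around the 3 WT libraries at 109.9, 110.5 and 110.8 CPM. With ImuBcl6 they ran from 123.9 to 143.4 CPM, against 125.5 to 137.7 CPM in the controls. The differences were -0.01 ± 0.07 (limma adjusted p = 0.957) and -0.01 ± 0.06 (limma adjusted p = 0.965), and the averaged effect had an interval of -0.10 to 0.09. In the libraries labelled KO, 4 lay between 136.3 and 153.8 CPM and replicate 3 at 92.1 CPM, beside Cre controls at 131.2 to 140.8 CPM. The difference of -0.04 ± 0.12 turned to 0.09 ± 0.05 without that library (limma adjusted p = 0.951 and 0.381).

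Gps2 (chromosome 11, 69913888 to 69916591, plus strand) encodes the small subunit that binds the scaffold. It was at 59.0, 60.9, 64.6, 68.1 and 58.0 CPM in D370Y and at 66.8, 68.4 and 68.7 CPM in WT libraries. D370Y replicate 4 lay within the WT range and the other 4 below it. The difference was -0.13 ± 0.07 (95% interval -0.28 to 0.02, limma adjusted p = 0.340). In the ImuBcl6 groups the ranges were 74.2 to 86.1 CPM with D370Y and 75.1 to 90.6 CPM without, a difference of -0.06 ± 0.07 (limma adjusted p = 0.621). Of the libraries labelled KO 4 held 102.2 to 108.9 CPM and replicate 3 held 70.1 CPM, against 98.1 to 104.1 CPM in the Cre controls. The difference of -0.07 ± 0.12 turned to 0.04 ± 0.05 without KO replicate 3 (limma adjusted p = 0.909 and 0.662).

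**Figure D3:**
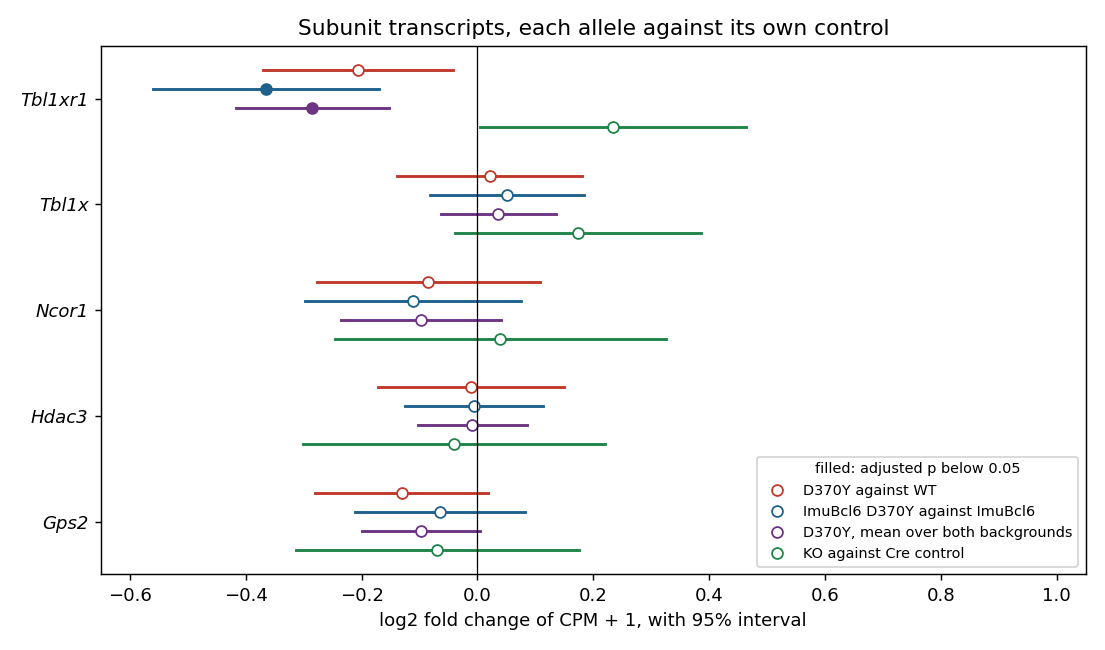
Log2 fold change of CPM + 1 with its 95% interval (x axis) for each subunit (y axis), for D370Y against WT, ImuBcl6 D370Y against ImuBcl6, the mean of both D370Y effects and KO against Cre control. Filled points, at -0.37 and -0.29 for Tbl1xr1, passed the limma test over all genes, and the interval of Tbl1xr1 lay below 0 in all 3 D370Y contrasts and just above 0 for KO.

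The set a library belonged to went with larger differences of the 5 members than any allele did. Per the labels, KO and Cre control libraries were made with a stranded TruSeq kit, whereas no kit is stated for the other 4 groups. Cre control and WT cells have the same genotype label, yet 5 of 5 members passed between them, where limma called 77.2% of all genes. The Y-linked transcripts exceeded Xist in all 3 WT libraries but in 1 of 5 Cre controls, so the sets also differ in sex pattern. The part of sex in these differences was not tested. Ncor1 (-1.14 ± 0.06, limma adjusted p = 6.01e-10), Tbl1xr1 (-0.96 ± 0.06, adjusted p = 4.42e-09) and Tbl1x (-0.36 ± 0.06, adjusted p = 0.000168) were lower in the Cre controls. Gps2 (0.57 ± 0.05, adjusted p = 5.67e-08) and Hdac3 (0.29 ± 0.04, adjusted p = 3.6e-05) were higher there. Mean Tbl1xr1 CPM fell in the order WT (167.9 ± 10.2), D370Y (145.6 ± 11.6), ImuBcl6 (128.1 ± 20.6), KO (102.0 ± 15.4), ImuBcl6 D370Y (98.3 ± 2.43) and Cre control (86.0 ± 5.82). Of the neighbours in that order, the last pair alone had ranges that did not overlap. For Ncor1 the break lay between ImuBcl6 D370Y (236.8 ± 15.9 CPM) and KO (135.7 ± 32.8), and for Hdac3 and Gps2 between both ImuBcl6 groups and the D370Y and WT groups. For Tbl1x all neighbours overlapped, and its highest group mean was 1.30 times its lowest, against 2.22 times for Ncor1, 1.95 for Tbl1xr1, 1.63 for Gps2 and 1.23 for Hdac3.

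Per kilobase of merged exons the short genes led. Gps2 had 38.7 to 63.2 CPM per kilobase as group means, Hdac3 27.1 to 33.4, Ncor1 10.1 to 22.4, Tbl1xr1 9.66 to 18.9 and Tbl1x 7.65 to 9.97. That order held in 24 of 28 libraries, and in the other 4 Tbl1xr1 exceeded Ncor1. Merged exons measured 12811 bases for Ncor1, 8903 for Tbl1xr1, 7052 for Tbl1x, 4054 for Hdac3 and 1604 for Gps2.

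Gene length went with these differences. Among 8281 other genes with a known length and a mean CPM of at least 5, the median log2 difference between Cre control and WT was 0.27 for the 1657 shortest (up to 2665 bases) and -0.47 for the 1656 longest (7815 bases or more). Every member moved farther from 0 than the median of genes of like length. Ncor1 (-1.14) and Tbl1xr1 (-0.96) compare with -0.47, and Gps2 (0.57) with 0.27. Hdac3 (0.29) compares with 0.02 for genes of 3967 to 5491 bases, and Tbl1x (-0.36) with -0.15 for genes of 5493 to 7811 bases. The part of length in the differences of the members was not tested. The 3 members with the longest merged exons were the ones lower in Cre controls, and the 2 with the shortest were the ones higher. An index of this balance, the mean log2(CPM + 1) of those longest genes minus that of the shortest, was 0.79 ± 0.03 (SD, n = 3) in WT, 0.79 ± 0.14 in D370Y, 0.48 ± 0.18 in ImuBcl6, 0.33 ± 0.06 in ImuBcl6 D370Y, -0.16 ± 0.05 in Cre control and -0.11 ± 0.37 (n = 5 each) in KO libraries. KO replicate 3 stood at 0.49 and the other KO libraries between -0.43 and -0.02.

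The index bears on the Tbl1xr1 result in ImuBcl6 cells. Between D370Y and WT the median differences of the shortest and longest genes were -0.03 and -0.02, so length did not separate those groups, and with the index as a covariate the Tbl1xr1 difference was again -0.21 (limma adjusted p = 0.103). In ImuBcl6 cells the medians were 0.07 and -0.08. With the covariate Tbl1xr1 moved from -0.37 to -0.20 there, and the averaged D370Y effect moved to -0.23 ± 0.05 (adjusted p = 0.00397). In the KO comparison the covariate left 0.21 ± 0.06, which then passed (adjusted p = 0.036). The differences between the KO effect and the D370Y and ImuBcl6 D370Y effects on Tbl1xr1 also passed with the covariate, at 0.41 and 0.46 (limma adjusted p = 0.028 and 0.00401). This covariate was chosen after the values were seen. It was not fitted without KO replicate 3, whose index (0.49) lies far from those of the other KO libraries (-0.43 to -0.02). Whether the KO calls with the covariate rest on that library was not tested.

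Within groups, too, subunits varied with the index. Ncor1 and Tbl1xr1 have the length of its longest genes (7815 bases or more), and Gps2 that of its shortest (up to 2665 bases). The share of other genes that varied with the index was not computed, so these relations are not shown to be particular to the subunits. Over 28 libraries, each minus its group mean, log2(CPM + 1) of Ncor1 rose with it (Pearson r = 0.92, Spearman rho = 0.92, permutation adjusted p = 5e-05 and 2.5e-05 over 5 tests). Tbl1xr1 rose (r = 0.83, rho = 0.78, permutation adjusted p = 0.000167 and 0.000417) and Hdac3 fell (r = -0.90, rho = -0.81, permutation adjusted p = 5e-05 and 2.5e-05). For Gps2 r was -0.71 and rho -0.45 (permutation adjusted p = 0.0446 and 0.0576), and for Tbl1x r was 0.18 and rho 0.43 (adjusted p = 0.627 and 0.0576). Without KO replicates 3 and 4, the libraries farthest from the median index, r was 0.88 for Ncor1, 0.77 for Tbl1xr1 and -0.80 for Hdac3, but -0.36 for Gps2, whose relation rests on those libraries. Within the 3 sets (D370Y with WT, the ImuBcl6 groups, KO with Cre control) r was 0.86, 0.94 and 0.94 for Ncor1 and -0.98, -0.79 and -0.92 for Hdac3. For Tbl1xr1 it was 0.22, 0.96 and 0.95, so the relation was weak in the D370Y and WT libraries. For Tbl1x it was 0.72, 0.70 and -0.12, and 0.47 over all sets without KO replicates 3 and 4. For Gps2 it was 0.13, -0.40 and -0.92.

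**Figure D4:**
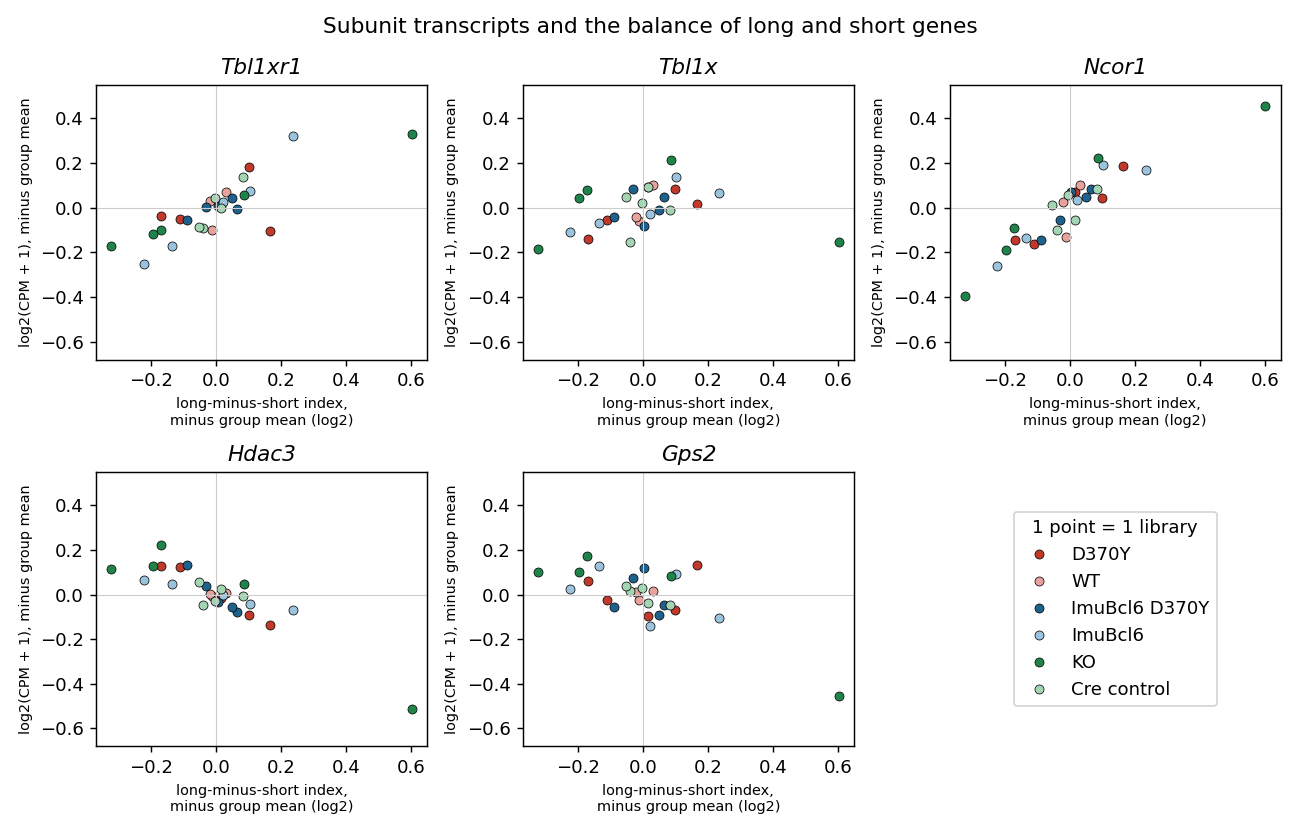
Log2(CPM + 1) of each subunit (y axis) against the long-minus-short index (x axis), both minus the group mean, with 1 point per library coloured by group. Ncor1 and Tbl1xr1 rose and Hdac3 fell along the index, and the point far to the right in each panel is KO replicate 3.

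The subunits were also set against each other in pairs, with no adjustment for the index. Of 10 pairs, 4 passed with both coefficients over the 28 group-centred libraries. The share of all gene pairs that would pass was not computed, so these pairs are not shown to stand out. Tbl1xr1 and Ncor1 rose together (r = 0.78, rho = 0.76, permutation adjusted p = 0.00125 and 0.0018). Among the 8439 genes searched for likeness below, Ncor1 ranked 278 by r with Tbl1xr1, and Tbl1xr1 ranked 524 by r with Ncor1. Ncor1 and Hdac3 moved in opposite directions (r = -0.76, rho = -0.71, permutation adjusted p = 0.00125 and 0.001), as did Tbl1xr1 and Hdac3 (r = -0.64, rho = -0.53, permutation adjusted p = 0.00723 and 0.0148) and Tbl1xr1 and Gps2 (r = -0.66, rho = -0.55, permutation adjusted p = 0.0242 and 0.0217). Without the 2 libraries farthest from the median of the first-named gene, KO replicate 3 among them each time, r was 0.70, -0.65, -0.45 and -0.43 in that order. Within the 3 sets r was 0.27, 0.85 and 0.91 for Tbl1xr1 with Ncor1, -0.81, -0.85 and -0.75 for Ncor1 with Hdac3, -0.20, -0.63 and -0.85 for Tbl1xr1 with Hdac3, and -0.52, -0.43 and -0.86 for Tbl1xr1 with Gps2. For Hdac3 and Gps2 r was 0.72 (permutation adjusted p = 0.135) and 0.11 without KO replicate 3. The paralogs Tbl1xr1 and Tbl1x had r = 0.27 (permutation adjusted p = 0.385), and 0.57 without KO replicate 3. Within the 3 sets their r was 0.58, 0.64 and -0.07.

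Likeness was described over all 28 libraries after removal of each group mean, with 8439 genes searched. The genes whose levels ran most like Tbl1xr1 included Wac (r = 0.89) and Ltn1 (0.88). For Ncor1 they were Bptf (0.97), Myst3 (0.95) and Ankrd17 (0.95), and for Hdac3 Pef1, Suclg1 and Snrnp40 (each 0.97). Tbl1x ran most like Phf8 (0.87), and Gps2 most like Pqbp1 (0.91). These are the highest of many high values. The 99th percentile of r over the genes searched was 0.93 for Hdac3, 0.89 for Ncor1, 0.83 for Tbl1xr1 and Gps2, and 0.70 for Tbl1x. Libraries of the same group still differ in depth and length balance, and these correlations were not adjusted for that.

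Cell type markers also differed between groups. The 12 myeloid markers, all listed, summed to 41.8 to 57.6 CPM in D370Y against 18.3 to 26.0 in WT, and to 36.6 to 59.8 in ImuBcl6 D370Y against 20.7 to 25.7 in ImuBcl6 libraries. In both backgrounds the ranges were apart, and in KO and Cre control they overlapped (80.0 to 197.7 against 100.1 to 148.0 CPM). The 7 T cell markers summed to 138.3 to 169.8 CPM in D370Y against 135.5 to 137.9 in WT, and to 176.6 to 223.8 against 123.1 to 150.6 with ImuBcl6. In KO libraries they summed to 125.3 to 287.9 CPM against 148.7 to 185.6 in Cre controls. Without KO replicate 3 the KO libraries ran from 203.5 to 287.9 CPM, above every Cre control. The 7 germinal center markers summed to 3280 to 3772 CPM in D370Y against 3679 to 3909 in WT, and to 2286 to 3179 in ImuBcl6 D370Y against 3106 to 3834 in ImuBcl6 libraries. The D370Y medians were the lower in both (3406 against 3855 and 3012 against 3409 CPM), and the ranges overlapped by a narrow margin. KO libraries held 1575.5 to 2083 CPM of these markers against 1873 to 2034 in Cre controls, or 1575.5 to 1882 without KO replicate 3. No myeloid, T cell or germinal center marker was at 0 in every library of a group. Of the 5 listed erythroid markers Hba-a1 and Hba-a2 were at 0 in every library, but the 5 together summed to 2.40 to 45.7 CPM. In bulk libraries fewer cells of a type and less RNA per cell cannot be told apart, and the part of these markers in the Tbl1xr1 result was not tested.

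Beyond the members, 96 genes of 10 lists around the complex were followed, of which 84 to 86 passed the filter. Among 8 core subunits, Coro2a, an actin-binding WD40 protein that binds the scaffold, went with Tbl1xr1 in ImuBcl6 cells. Its ImuBcl6 D370Y libraries ran from 44.1 to 50.0 CPM and its ImuBcl6 libraries from 56.8 to 68.9 CPM, with no overlap. Coro2a fell by 0.42 ± 0.06 on the log2 scale (limma adjusted p = 0.00244), or by 0.47 with the length covariate. In the libraries labelled KO it was at 45.4 to 70.4 CPM, below all Cre controls at 78.7 to 102.6 CPM, with a difference of -0.50 ± 0.12 that did not pass (limma adjusted p = 0.0508). The difference did pass, at -0.55 to -0.39, without KO replicate 3 (limma adjusted p = 0.00578) or 4 (0.0479), with TMM scaling (0.013), CPM over listed genes (0.00888), the replicate block (0.0283), the Y-linked covariate (0.0192), the length covariate (0.000109) or 1 fit of all libraries (0.00116), by edgeR (0.0101) and by DESeq2 (2.67e-05). It did not pass without the low-value filter (0.148), with a pseudocount of 0.5 (0.0515) or with any other single library left out (0.0696 to 0.172). Between D370Y and WT it was -0.08 ± 0.07 (limma adjusted p = 0.572).

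In ImuBcl6 cells 11 of 84 pathway genes fell with D370Y and 1 rose, where 5.38% of all genes tested fell and 8.18% passed in either direction. Besides Tbl1xr1 and Coro2a the falls were in the repressors Cbfa2t2 (-0.37 ± 0.07) and Bcl6 (-0.24 ± 0.06), of 10 tested that recruit the complex, and in Hdac7 (-0.30 ± 0.09), of 10 other histone deacetylases. They were also in Bcor (-0.29 ± 0.08), of 7 genes of the BCOR complex, in the NuRD subunits Gatad2b (-0.39 ± 0.07) and Mbd2 (-0.24 ± 0.07), of 9, in the CoREST subunits Kdm1a (-0.21 ± 0.05) and Rcor1 (-0.33 ± 0.09), of 8, and in the coactivator Ep300 (-0.39 ± 0.09), of 5. The Bcl6 call (limma adjusted p = 0.0344) was lost with the replicate block (0.0506), with CPM over listed genes (0.0526), without the low-value filter (0.0557), by edgeR (0.0501), and when D370Y replicate 1, 2 or 3 or control replicate 2, 3 or 4 was left out (0.0632 to 0.103). The ubiquitin-conjugating enzyme gene Ube2d1 rose (0.27 ± 0.07), of 10 exchange and ubiquitin partners. No gene passed among 5 nuclear receptors and 12 SIN3 subunits. The number lower was 8 with TMM scaling, 7 with CPM taken over listed genes or by edgeR, 5 without the low-value filter, 19 by DESeq2 and 16 with the length covariate, and it ranged from 3 to 16 when single libraries were left out, with 3 without ImuBcl6 D370Y replicate 3 or ImuBcl6 replicate 3. The median over the 84 genes was -0.10, against -0.01 over all genes tested.

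Between D370Y and WT 1 of 85 pathway genes passed: Sap30, a subunit of the SIN3 deacetylase complex, was at 18.9 ± 1.56 against 26.3 ± 1.96 CPM and fell by 0.46 ± 0.09 (limma adjusted p = 0.0103). That call was lost without WT replicate 3 and in 1 fit of all 28 libraries. In the KO comparison 0 of 86 passed, and 1 was lower, Coro2a, under the settings in which it passed above, except the length covariate, which gave 2 lower and 1 higher. For the averaged D370Y effect 14 of 85 were lower, where 6.28% of all genes tested were lower and 12.5% passed in either direction. The 1 gene that was higher was Rxra (0.28 ± 0.08), a partner of many nuclear receptors. Sap30 (-0.30 ± 0.07), Kdm1a (-0.17 ± 0.04), Mbd2 (-0.22 ± 0.05), Gatad2b (-0.23 ± 0.05) and Kdm2b (-0.19 ± 0.05), a BCOR complex subunit, were among those lower. No pathway gene passed for the difference between the backgrounds.

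**Figure D5:**
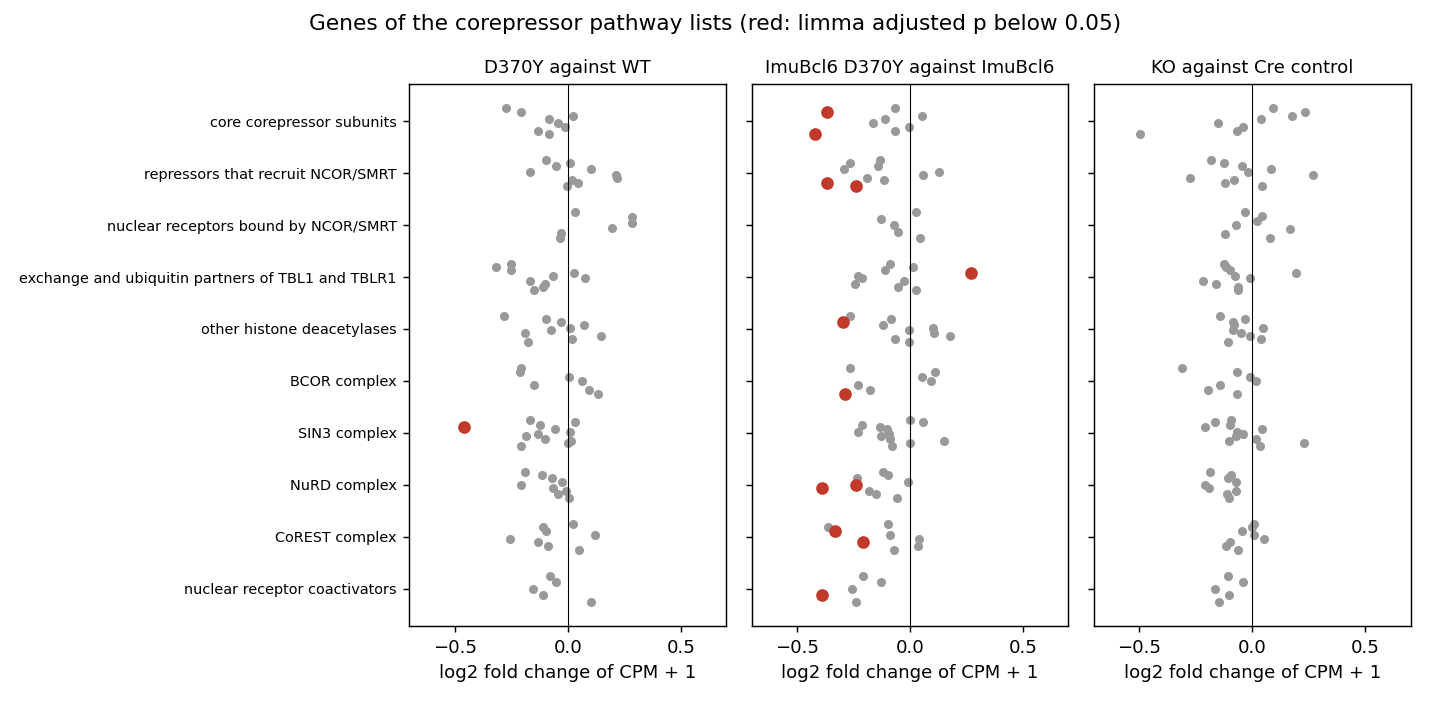
Log2 fold change of CPM + 1 (x axis) of every tested gene of the 10 lists around the complex (y axis), in the 3 allele comparisons, with genes past the limma threshold in red. The 12 red points with ImuBcl6 lay to the left except Ube2d1, against 1 red point (Sap30) between D370Y and WT and none between KO and Cre control.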

How the data were processed

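Total RNA of germinal center B cells was sequenced in 28 libraries, and the authors deposited 1 table of CPM per library, per the labels and the files. STAR and mm10 are named in the submitters' processing notes. The counting tool, annotation and strand setting are not given in the sources used here, so reads shared with overlapping genes cannot be separated: exons of Ncor1 overlap those of Pigl on the opposite strand over 82 bases and of Ttc19 over 1 base, and the other 4 members share no annotated exon base with another gene. The CPM were whole multiples of 1 read's worth in 100% of values (within 0.01 read), and the recovered counts were 64.4% to 84.6% of the authors' denominator. Between D370Y and WT, ImuBcl6 D370Y and ImuBcl6, and KO and Cre control, edgeR (version 4.0.16, quasi-likelihood) on these reads called 358, 799 and 237 genes, against 376, 882 and 146 by limma.

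Values of log2(CPM + 1) were fitted with limma (version 3.58.1, R 4.3.3; trend and robust moderation, two-sided, Benjamini-Hochberg over all genes tested, threshold 0.05), keeping genes with a CPM of at least 1 in as many libraries as the smallest group. Each comparison had its own fit, and contrasts of effects a fit of 4 groups. Fold changes on the log2(CPM + 1) scale understate changes of low genes. Ratios were tested by exact permutation, and correlations by 100000 permutations within groups. On simulated reads limma recovered 87%, 89% and 77% of genes changed 1.5-fold in the 3 allele comparisons in that order. Changes as small as those of the members, the largest -22.4%, were not simulated, and neither was a shift in length balance. No 2 libraries were identical. Positions, lengths and sequences are from GENCODE M21, in which 21127 of the 23382 symbols were found.

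Members, lists and marker sets were chosen with earlier results of these data known. The 5 members are named throughout, of each list up to 3 called genes per comparison by adjusted p, and up to 3 genes most like each member. Coro2a in the KO comparison was named after its values were seen. Some genes of the lists are not reported here and are left out of the counts and sums. Alternatives were another pseudocount (0.5), no low-value filter (genes with no read in the fit left out), CPM over listed genes, TMM scaling, edgeR, DESeq2 (version 1.42.0), 1 fit of all 28 libraries, single libraries left out, a replicate block and, for KO, a Y-linked covariate. The length covariate was added after the values were seen.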

Additional observations from a re-analysis of the deposited data

Results flagged for a closer look

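KO replicate 3 held the lowest Hdac3 level of its group, at 92.1 CPM, with the nearest of the other 4 KO libraries at 136.3 CPM. The same library held the lowest Gps2 level, at 70.1 CPM, with the nearest at 102.2 CPM. It also gave the highest ratio of Tbl1xr1 to Tbl1x among the KO libraries, 2.34, with the nearest at 1.68. Each of these values lay farther from its group than Dixon's 95% criterion allows for 5 samples. With CPM over listed genes the same library was still the lowest, at 143.1 for Hdac3 (nearest 163.4) and 108.8 for Gps2 (nearest 122.6), but neither passed the criterion (gaps of 0.526 and 0.692 of the group's range, against 0.71). Chance passes that criterion in about 1 in 20 groups, and all of these values come from 1 library, which also had the lowest share of reads on listed genes (64.4%) and the highest long-minus-short index of its group (0.49). The part of these in the result was not tested.

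Every D370Y library differed from the WT mean of Tbl1xr1 in one direction and every KO library from its control mean in the other. The differences were -0.21 for D370Y and 0.23 for KO on the log2 scale, and -0.37 for ImuBcl6 D370Y. The tests of the difference between effects gave limma adjusted p = 0.328 for KO against D370Y and 0.103 for KO against ImuBcl6 D370Y, so neither passed over all genes.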

How the results depend on the processing

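Of 557 recomputed values, 469 kept their direction and their side of the threshold or moved little. Values near 0 changed sign most often. Hdac3 between D370Y and WT was 0.0251 with CPM over listed genes, 0.0055 by edgeR, 0.0026 by DESeq2 and -0.0427 to 0.0233 with single libraries left out. With ImuBcl6 it was 0.0152, 0.0106 (TMM), 0.0092, 0.0116 and -0.0387 to 0.0137 in that order, and for KO 0.0218, 0.0156 (TMM), 0.0339, 0.033 and -0.0961 to 0.0872. For the difference between backgrounds it was -0.0099 with CPM over listed genes and -0.077 with the length covariate, for KO minus D370Y 0.0643 (TMM), 0.0602 (edgeR) and 0.0067 (length), for the averaged effect 0.0202 with CPM over listed genes, and for KO minus ImuBcl6 D370Y 0.0065, 0.0174, 0.0221 and 0.0945 (listed, TMM, edgeR, length). Gps2 in that last contrast was 0.036, 0.0468, 0.051 and 0.107 under the same settings, and for KO 0.0015 by edgeR, 0.00066 by DESeq2 and -0.112 to 0.0446 with single libraries left out. Ncor1 with the length covariate was 0.0461 with ImuBcl6, -0.0017 for KO, 0.128 between backgrounds and -0.0276 for KO minus ImuBcl6 D370Y, and for KO it was -0.0744 to 0.139 with single libraries left out. Tbl1x between D370Y and WT was -0.0093 to 0.0723, and the log2 ratio for KO -0.0631 to 0.105, with single libraries left out.

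Tbl1xr1 with ImuBcl6 was -0.365 without the low-value filter (0 members called) and -0.428 to -0.284 with single libraries left out (0 or 1 called). With the length covariate Tbl1xr1 passed for KO (0.207, 1 member called), for KO minus D370Y (0.414) and for KO minus ImuBcl6 D370Y (0.463). Genes called between D370Y and WT numbered 219 without the filter, 649 with the length covariate, 659 by DESeq2, 249 in 1 fit of all libraries and 124 to 473 with single libraries left out (149, 148 and 124 without WT replicate 1, 2 and 3). With ImuBcl6 they numbered 1580 (length), 1378 (DESeq2) and 434 to 1016, and for KO 86 (no filter), 239 (listed), 237 (edgeR), 617 (length), 455 (DESeq2), 279 (1 fit) and 87 to 449, with 449 without KO replicate 3. Higher calls made up 34.2% with ImuBcl6, 34.2% for KO and 49.8% for the averaged effect, or 44.7%, 48.5% and 64.6% with CPM over listed genes.

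Replicate numbers did not pair the libraries: same-numbered libraries correlated at -0.08 to 0.23, -0.33 to 0.56 and -0.21 to 0.26 in the 3 comparisons, and a library correlated best with its own number in 1 of 3, 1 of 5 and 1 of 5. With a replicate block 754 genes were called between D370Y and WT (738 in the same libraries with no block), 1000 with ImuBcl6 and 183 for KO. Between D370Y and WT, Tbl1x was then -0.0158 and Hdac3 0.0402, with and without the block. No member's call changed with it. Depth did not limit the members, each with at least 1350 reads.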
